A study of Mus musculus with 4 samples.

Results

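The mouse genes named Zfp followed by a number encode zinc finger proteins, and 277 probe sets of 188 of these genes are described here in pseudopodia and cell bodies of NIH/3T3, an embryonic mouse fibroblast line. The 188 are among 11426 genes with a tested probe set of their own. A member is a probe set whose only gene symbol in the array annotation is Zfp and a number, with a mean intensity of at least 42 over 4 arrays; Zfp36, the gene of an RNA-binding protein of another zinc finger class, was left out. On the array, 574 probe sets of 304 genes had such a symbol, and 297 of them lay under that intensity. Cells without serum sat above a membrane with pores, whose lower face alone carried fibronectin, and extended pseudopodia through it for 1 h. Both compartments had the same line, medium, coating and fixation, which was 10 min in 0.3% formaldehyde, with reversal at 70 °C for 45 min. One compartment was wiped away by hand and the other was collected, with 2 arrays of pseudopodia and 2 of cell bodies, called replicates 1 and 2 as in the titles. The line is a long-cultured one, and nothing in the labels says that the samples of a compartment came from separate cultures, so a p-value here measures no more than how these samples vary, and that variation may be technical.

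Most Zfp proteins carry C2H2 fingers, loops held by a zinc ion between cysteines and histidines, each of which reads a few bases of DNA. Many also carry a KRAB domain, which recruits the corepressor Trim28 and through it the histone methyltransferase Setdb1, and these factors are known for silencing transposable elements. The KRAB genes multiplied in rodents by local duplication, so that relatives lie side by side in clusters. Other members of the name group have unrelated tasks, among them ribosome assembly, translation quality control, splicing and SUMO transfer, since the symbol names a fold and not a function.

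An intensity is a linear signal of a probe set, with 20 as the lowest value that the deposited table holds on each array, and a value of 20 is only an upper bound. Across all 45037 non-control probe sets, the array medians ran from 40.5 to 45.6, and 30.5% to 34.8% of probe sets lay at 20. The Zfp members were dim: the median member had an intensity of 131 and 134 in pseudopodia and 132 and 114 in cell bodies, against 218 to 233 over the 22884 probe sets tested. The number of arrays limits the precision. Log2 values of the members differed between the arrays of a compartment with an SD of 0.37 and 0.34, and between arrays of different compartments with an SD of 0.52 to 0.63. Fibroblast markers summed to 56922 and 57007 in pseudopodia and to 81169 and 73675 in cell bodies, over 10 genes of which 1 lay at 20 on each array. Epithelial markers summed to 2627 to 3792 over 7 genes and haematopoietic ones to 335 to 436 over 6 genes, where Lyz2 and Csf1r reached the threshold and Ptprc, the pan-leukocyte marker, did not. The listed RNAs known as nuclear, 5 in number, summed to 2564 and 3225 in pseudopodia and to 5036 and 4869 in cell bodies at their brightest probe sets. Over the 15 tested probe sets of that list the median log2 difference was 0.19, with 9 above 0 and 1, of Neat1, called lower. For the Actb control, the 3' over 5' signal on the log2 scale, a sign of RNA quality, was 0.56 and 0.65 in pseudopodia and 0.37 and 0.36 in cell bodies. The other controls were mixed. Gapdh had -0.075 and -0.066 against -0.095 and -0.098, a small gap in the direction of Actb. The other way went 18S, with 2.46 and 1.35 against 2.77 and 3.06. Arrays overlapped for the transferrin receptor, with 2.17 and 2.49 against 2.42 and 2.91. They also overlapped for pyruvate carboxylase, with 2.61 and 2.32 against 2.54 and 2.25. The part of these differences in the values below was not tested. An array of bulk RNA reads shares, so fewer copies per protrusion and fewer protrusions that carry an RNA cannot be told apart.

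As a family, the Zfp probe sets were spread around a difference close to 0. Dim ones tilted toward pseudopodia, but some of these passed the intensity filter through pseudopodia alone. The median log2 difference, pseudopodia minus cell bodies, was 0.10 over the 277 members, with quartiles of -0.15 and 0.49, against -0.0033 over all tested probe sets; 160 members (57.8%) lay above 0, against 49.7% of all. The median moved with the arrays used: over the 4 pairs of a pseudopodia and a cell body array its SD was 0.070, and without cell body replicate 2 it fell to 0.011. Pseudopodia and cell bodies were compared probe set by probe set with limma on log2(intensity + 1), a scale that understates the change of dim genes, with Benjamini-Hochberg adjustment over all 22884 tested probe sets at a threshold of 0.05. By that rule 17 of the 277 members were called, against a background of 11.4%. Of these, 13 were higher in pseudopodia, which is 4.69% of the members against a background of 4.11%, and 4 were lower, which is 1.44% against 7.26%. The share that rose lay near that of all probe sets and the share that fell lay below it, a difference that was not itself tested. With a mean of at least 42 in each compartment the share called higher was 3.2% against 4.18%, and with median centring 9.03% against 5.79%. By size alone, 3 members were at least 2-fold lower in pseudopodia with arrays that did not overlap (1.08%, against a background of 7.45%), and 17 were at least 2-fold higher in the same way (6.14%, against 3.35%). Of those 3, 2 reached the intensity threshold in cell bodies alone, where they were high, and 1 reached it in both compartments. Of those 17, 11 reached the intensity threshold in pseudopodia alone, so they passed the filter through the compartment where they were high; 6 were among the 250 members that reached it in both, and the count of 17 is no excess to read. Arrays of the compartments did not overlap at 101 members higher in pseudopodia (36.5%, against 28.7%) and at 67 lower (24.2%, against 30.8%). Of the 101, 18 reached the intensity threshold in pseudopodia alone, and of the 67, 4 reached it in cell bodies alone.

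**Figure D1:**
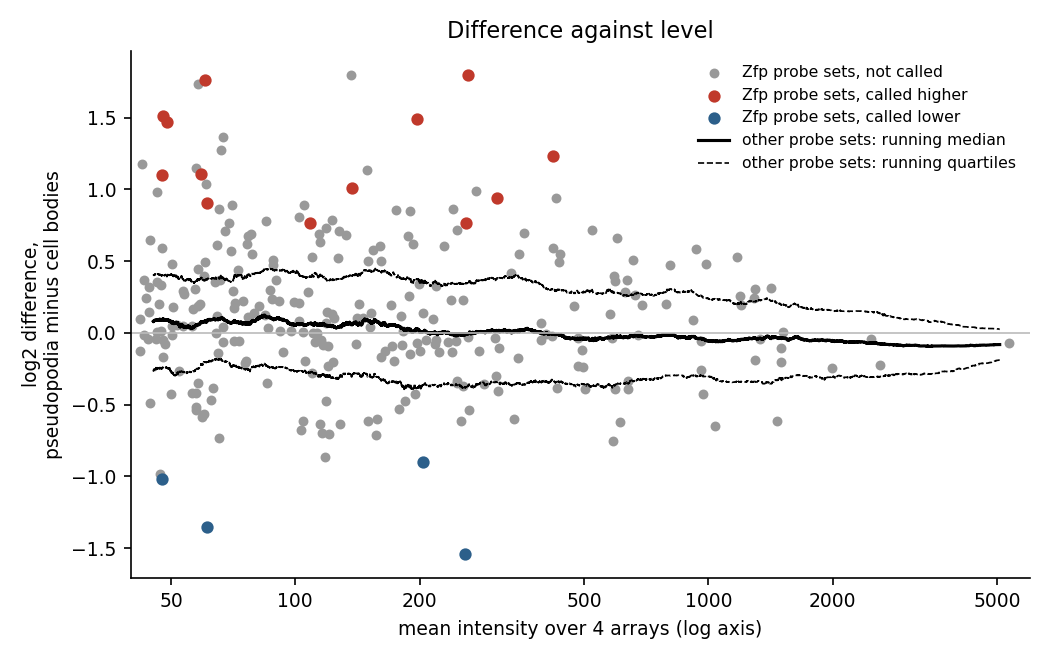
Log2 difference, pseudopodia minus cell bodies, against mean intensity over 4 arrays (log axis) for the 277 Zfp probe sets, with the running median and quartiles of the other 1-symbol probe sets. The 13 Zfp probe sets called higher in pseudopodia lie at 0.76 and above, the 4 called lower lie at -0.90 and below, and the running median of the other genes slopes gently down with level.

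Dim probe sets of other genes also leaned to pseudopodia, so the family was set beside genes of its level. With a mean intensity of 42 to 80, 92 Zfp probe sets had a median of 0.18, against 0.076 for 3884 probe sets of other genes. In that class 40 Zfp probe sets (43.5%, against a background of 25.2%) were higher in pseudopodia on both arrays than on either cell body array, and 16 (17.4%, against 20.9%) were lower in that way; 6 were called higher and 2 lower, against backgrounds of 2.33% and 4.84%. Between 80 and 160, 66 Zfp probe sets had a median of 0.11 and the others 0.075. Of these 66, 19 were higher and 16 lower without overlap (28.8% and 24.2%, against 29.8% and 23.8%), with 2 called higher and 0 lower by limma (backgrounds of 4.88% and 6.08%; 22 had an unadjusted p under 0.05). Between 160 and 320, 56 had a median of -0.054 and the others 0.018. Here 17 were higher and 16 lower without overlap (30.4% and 28.6%, against 31.2% and 31.6%), with 4 called higher and 2 lower (backgrounds of 6.27% and 8.69%). In both middle classes the family lay close to all probe sets. At 320 and over, 63 had a median of 0.0095 against -0.052. In this brightest class 25 Zfp probe sets (39.7%, against a background of 29.1%) were higher with no overlap and 19 (30.2%, against 38.9%) were lower, and 1 was called higher and 0 were called lower (backgrounds of 3.95% and 8.56%). With the median of other genes of the same level taken off, the median of the members was 0.045, and 153 members (55.2%) lay above their level's median. That median was 0.10 without cell body replicate 1 and 0.015 without cell body replicate 2, so its size rests on single arrays. A member could pass the threshold through 1 compartment: 250 members reached 42 in both compartments, with a median of 0.054, 21 reached it in pseudopodia alone and 6 in cell bodies alone. Of the 250, 83 (33.2%) were higher without overlap and 63 (25.2%) lower. Those 21 lie in the dimmest class, and 18 of them were higher without overlap. They passed the filter through the compartment where they were high, so the 43.5% of that class is no excess to read. Of the 13 called higher, 5 were among those 21, and of the 4 called lower, 2 were among those 6.

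**Figure D2:**
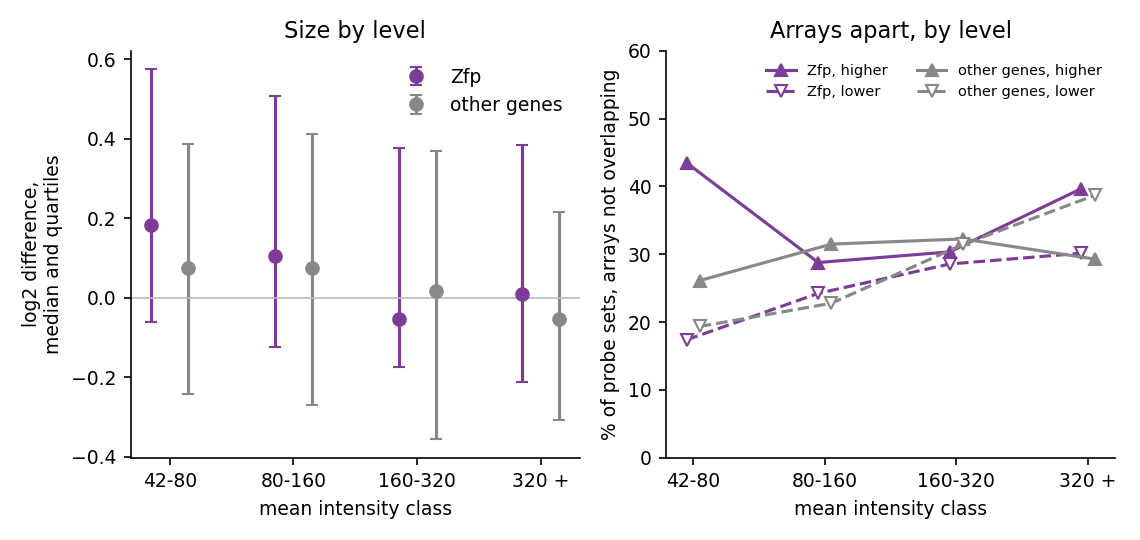
Left, median log2 difference with quartiles by class of mean intensity, for Zfp probe sets and for the other 1-symbol probe sets; right, the percentage of each whose arrays did not overlap, higher or lower in pseudopodia. Zfp probe sets stand highest over other genes in the dimmest class, at 43.5% higher without overlap. That class holds the members that passed the intensity filter through pseudopodia alone.

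Just inside the threshold lay Zfp109 at a mean of 42.1, Zfp236 at 42.1 and Zfp946 at 42.5, and just outside it a second probe set of Zfp52 at 41.99, one of Zfp593 at 41.9 and Zfp868 at 41.6. That probe set of Zfp52 read 43.1 and 71.7 in pseudopodia and 33.1 and 20 in cell bodies, so the line at 42 leaves out probe sets much like those it keeps.

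Zfp931, one of 4 neighbouring Zfp genes, had the largest difference among the members. Pseudopodia gave 455 and 361, and cell bodies gave 112 and 119.7. The arrays were far apart, at a log2 difference of 1.80 (3.48-fold, SE 0.18, limma adjusted p = 0.0257). Its probe set ID ends in x, the mark of probes that may match other transcripts, so the signal may be shared with relatives. The same holds for Zfp982, at 79.4 and 82.5 in pseudopodia and 35.6 and 38.5 in cell bodies, which rose by 1.11 (SE 0.14, limma adjusted p = 0.0272). Zfp386, the gene of a KRAB repressor also called Kid3, read 104 and 82.5 in pseudopodia and 35.1 and 20 in cell bodies. Its log2 difference of 1.76 (SE 0.31, limma adjusted p = 0.0377) rests on a cell body array at the lowest value, so its size is uncertain. Zfp617 read 282 and 295 in pseudopodia and 131 and 79.3 in cell bodies, a rise of 1.49 (SE 0.27, limma adjusted p = 0.0403). Its other probe set, at 161 and 114 against 78.4 and 67.0, went the same way with a difference of 0.89 (limma adjusted p = 0.0749). Zfp959 read 72.6 and 72.1 against 28 and 23.2, and rose by 1.47 (SE 0.16, limma adjusted p = 0.0257). Zfp472 read 81.1 and 79.3 against 45.4 and 39.3, and rose by 0.91 (SE 0.15, limma adjusted p = 0.0354). On each of these probe sets both pseudopodia arrays lay above both cell body arrays, and the cell body values ran from the floor of 20 for Zfp386 to 131 for Zfp617. Zfp386, Zfp959 and Zfp982 had cell body means of 27.6, 25.6 and 37.1, so they reached the intensity threshold of 42 in pseudopodia alone. They passed the filter through the compartment where they were high, and their lack of overlap is no support.

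**Figure D3:**
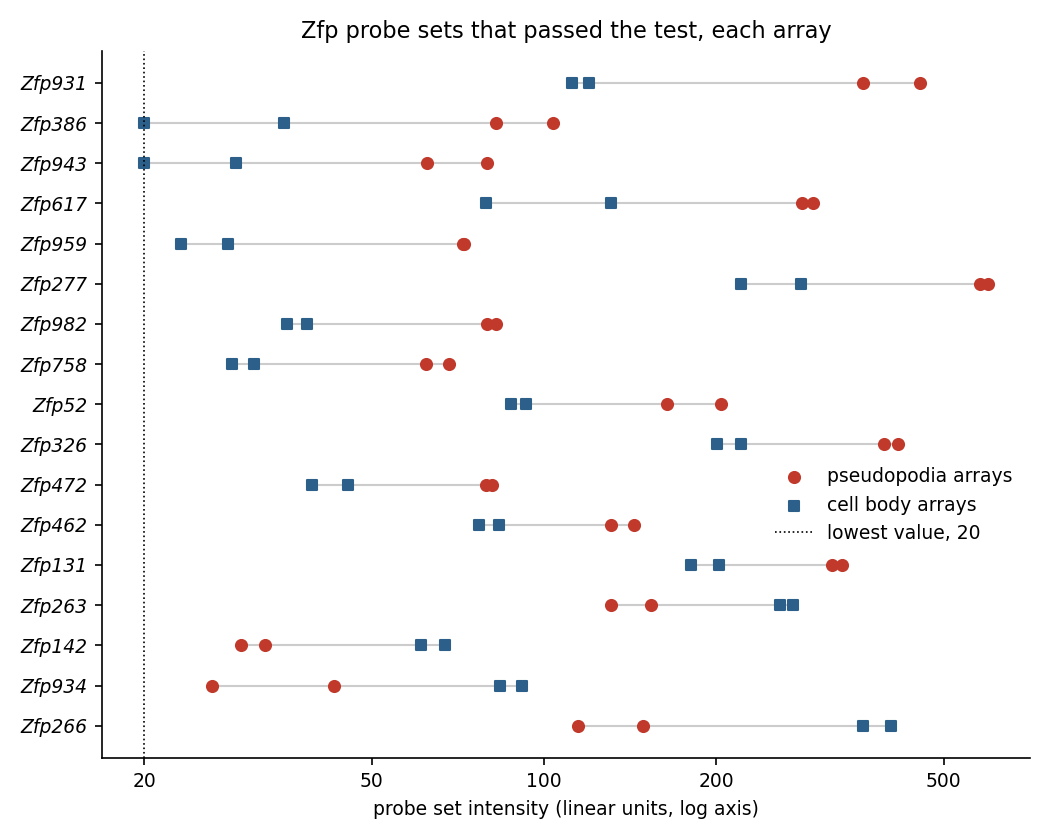
Intensity (log axis) of the 17 Zfp probe sets that passed the test, on each of the 2 pseudopodia arrays (circles) and 2 cell body arrays (squares), ordered by log2 difference; the dotted line marks the lowest value of the table, 20. Within each probe set the compartments do not overlap, and 2 probe sets have a cell body array at 20.

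Genes of RNA processing and translation gave 22 probe sets of 11 genes; 2 rose (9.09%, against 4.11% of all tested) and 0 fell (against 7.26%), and their median was 0.077. Zfp277, whose human counterpart binds a protein of the small ribosomal subunit, was the brightest member that rose. It read 579 and 597 in pseudopodia and 282 and 221 in cell bodies, a rise of 1.23 (2.35-fold, SE 0.18, limma adjusted p = 0.0295). Zfp326, a subunit of a complex that couples transcript elongation to splicing, read 416 and 393 against 200.4 and 221, and rose by 0.94 (SE 0.15, limma adjusted p = 0.0319). Zfp638, the gene of a nuclear RNA-binding protein, is named after its values were seen: its probe sets had differences of 1.74 and 1.37 (limma adjusted p = 0.0522 and 0.0565), and read 65.5 and 115, and 96.6 and 95.2, in pseudopodia against 32.0 and 20, and 48.8 and 27.4, in cell bodies. Both missed the adjusted threshold of 0.05 narrowly. On both the cell body mean lay under 42, so they passed the intensity filter through pseudopodia alone, where they were high. Zfp330, a nucleolar protein, had a difference of 0.48 (limma adjusted p = 0.111), with pseudopodia arrays at 1099 and 1196 above cell body arrays at 851 and 791.

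The translation factors among them were the brightest members and lay close to 0. Zfp622, which helps to mature the large ribosomal subunit, read 5133 and 5264 in pseudopodia and 5365 and 5562 in cell bodies at its brightest probe set, a difference of -0.072 (SE 0.14, limma adjusted p = 0.784), and the remaining ones of the gene had -0.040 and -0.26. Zfp598, the ubiquitin ligase that marks collided ribosomes, read 2384 and 2426 against 2752 and 2861, a difference of -0.22 (SE 0.14, limma adjusted p = 0.365). The arrays of Zfp598 did not overlap, but the gap was small. Zfp593, another factor of the large subunit, had 0.30, the RNA-binding Zfp106 had 0.18 to 0.26 over 3 probe sets, the double-stranded RNA binder Zfp346 had -0.017 and -0.018, and the splicing-associated Zfp830 had 0.13 and 0.050. Zfp207, a kinetochore protein that also acts in splicing, had probe sets from -0.71 to 0.10, of which the brightest, at 1614 and 1187 against 1606 and 1578, gave -0.20 (limma adjusted p = 0.572). Other bright members outside that list, Zfp703 and Zfp771, had differences of -0.24 and 0.0095, and their other probe sets had 0.37 for Zfp703 and 0.19 and -0.42 for Zfp771.

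Zinc finger genes of chromatin and SUMO regulation had a median of 0.19 over 31 probe sets of 13 genes, and 1 rose (3.23%, against 4.11% of all tested) and 0 fell (against 7.26%). That was Zfp462, which works with heterochromatin protein and the methyltransferases that dimethylate histone H3. It read 131 and 143 in pseudopodia and 77.1 and 83.3 in cell bodies, a rise of 0.77 (SE 0.15, limma adjusted p = 0.0447), and its other probe set had 0.50 (limma adjusted p = 0.256). Zfp644, a partner of the same enzymes, lay above 0 at each of 4 probe sets, from 0.14 to 0.86, and the highest, at 218 and 232 against 147 and 104, gave a limma adjusted p of 0.0749. Zfp292 lay above 0 at 4 of 4 as well, from 0.18 to 1.14. Zfp451, a SUMO ligase, had 3 of 4 above 0, with a highest difference of 0.61 (limma adjusted p = 0.0702). Zfp91, the gene of a ubiquitin ligase, was bright, and its probe sets had 0.31 and 0.53 (limma adjusted p = 0.0873 for the second). Zfp592 and Zfp687, which share a corepressor complex, lay below 0: Zfp592 had -0.62, -0.53 and -0.056, and Zfp687 had -0.40 (limma adjusted p = 0.147). Zfp318, Zfp365, Zfp407, Zfp512 and Zfp827 had 10 probe sets between -0.13 and 0.48.

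Among other sequence-specific factors, 27 probe sets of 14 genes had a median of 0.14, with 0 called higher and 1 called lower (0 and 3.70%, against 4.11% and 7.26% of all tested). Zfp263, a factor with SCAN and KRAB domains, fell from 272 and 259 in cell bodies to 154 and 131 in pseudopodia, a log2 difference of -0.90 (SE 0.16, limma adjusted p = 0.0384). Its other probe set, at 238 and 209 against 165 and 166, gave -0.43 (limma adjusted p = 0.147). Zfp503 and Zfp217, a transcriptional repressor and a corepressor-bound oncogene, had differences of -0.87 and -0.70 (limma adjusted p = 0.0541 and 0.0506). On these probe sets the arrays did not overlap, but a second one of Zfp503 read 52.1 and 72.4 in pseudopodia against 63.8 and 71.8, with overlap and a difference of -0.14. The growth regulator Zfp148 lay above 0 at each of 6 probe sets, from 0.28 to 0.85 with a median of 0.57, and on no probe set did the compartments overlap. Its clearest probe set read 256 and 230 in pseudopodia against 153 and 117 in cell bodies (limma adjusted p = 0.0608), so no single probe set passed. Zfp281, its close relative, had 0.50 and 0.55 (limma adjusted p = 0.187 and 0.224), and Zfp367 had 0.59 (limma adjusted p = 0.109). Zfp335, Zfp395, Zfp410, Zfp516, Zfp521 and Zfp652 had 10 probe sets between -0.42 and 0.26.

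A list of KRAB repressors with a described role, which does not hold Zfp386 or Zfp266, gave 12 probe sets of 10 genes, with a median of 0.33, and 0 were called by limma at the adjusted threshold (backgrounds of 4.11% higher and 7.26% lower; 3 had an unadjusted p under 0.05). Zfp110, which binds a neurotrophin receptor, had 0.99, 0.86 and 0.30 (limma adjusted p = 0.0856, 0.0609 and 0.673). Its brightest probe set read 397 and 329 in pseudopodia and 227 and 145 in cell bodies. The IDs of the probe sets with 0.99 and 0.86 end in a and x, so they may match several transcripts. On the one with 0.30 the arrays overlapped, at 117 and 72.8 against 101 and 55.4. Zfp961 had 0.63, while Zfp568, the repressor of a placental Igf2 transcript, had -0.39, Zfp746 had -0.37, Zfp689 had -0.20 and Zfp369 had -0.088. Zfp57, which guards imprinted marks, read 58.9 and 75.5 against 45.2 and 52.5, a difference of 0.45 (limma adjusted p = 0.212).

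Partners of KRAB proteins and other finger families were read beside the members. Of 57 probe sets of 27 genes of KRAB corepressors and heterochromatin, 3 rose (5.26%, near the 4.11% of all tested) and 0 fell (against 7.26%), with a median of 0.040. These were the chromatin remodeller Atrx, by 0.73 (SE 0.14, limma adjusted p = 0.0464), the deacetylase Hdac2, by 0.77 (SE 0.14, limma adjusted p = 0.0412), and the methyltransferase Suv39h2, by 0.90 (SE 0.19, limma adjusted p = 0.0495). Of 58 Zbtb probe sets 3 rose, at Zbtb12 by 1.40, Zbtb41 by 0.95 and Zbtb38 by 0.87, with a median of -0.056; that is 5.17%, against 4.11% of all tested. Of 26 Zscan and Zkscan probe sets 1 fell, at Zkscan1 by 1.27, and of 31 Klf probe sets 2 fell, both of Klf3, with differences of -1.30 and -1.10. These are 3.85% and 6.45%, against 7.26% of all tested.

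Several probe sets of one gene did not always go one way. Of 57 Zfp genes with at least 2 members, 34 (59.6%) had all of them on one side of 0, 21 above and 13 below, against 61.5% of 4942 other genes. Zfp266, a KRAB gene known as a barrier to reprogramming, was the widest apart. Its probe set that passed the test read 114 and 149 in pseudopodia and 361 and 404 in cell bodies, a fall of 1.54 (2.91-fold, SE 0.19, limma adjusted p = 0.0262). Its brighter probe set read 494 and 513 against 295 and 378, a difference of 0.59 (limma adjusted p = 0.111), and the third read 86.3 and 99.0 against 53.1 and 26.6, a difference of 1.27 (limma adjusted p = 0.0909). No direction can thus be given for the gene. Zfp142 was lower at all 4 of its probe sets, from -1.02 to -0.35. The dimmest, at 32.5 and 29.6 against 67.1 and 60.9, passed (SE 0.15, limma adjusted p = 0.0301). With a pseudopodia mean of 31.0, it passed the intensity filter through cell bodies alone, where it was high. The brightest, at 216 and 182 against 318 and 289, gave -0.61 (limma adjusted p = 0.0876). Zfp574 was also lower at its 3 probe sets, from -0.75 to -0.52, with a limma adjusted p of 0.0508 at the brightest. Higher at all their probe sets were Zfp511, from 0.37 to 0.51, Zfp787, from 0.14 to 0.89, and Zfp871, from 0.19 to 0.41. Zfp24, Zfp276 and Zfp397 had probe sets on both sides of 0. Among the 17 called genes, 5 had another member, and 6 of those 8 other probe sets lay on the side of the called one; the exceptions were those of Zfp266. The remaining losses and rises rest on 1 member each. Zfp934 fell from 83.6 and 91.6 to 42.9 and 26.3, by 1.35 (SE 0.27, limma adjusted p = 0.0462). With a pseudopodia mean of 34.6, it too passed the intensity filter through cell bodies alone. Zfp131, a BTB-domain factor, rose from 202 and 181 to 319 and 332, by 0.76 (SE 0.15, limma adjusted p = 0.0448).

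**Figure D4:**
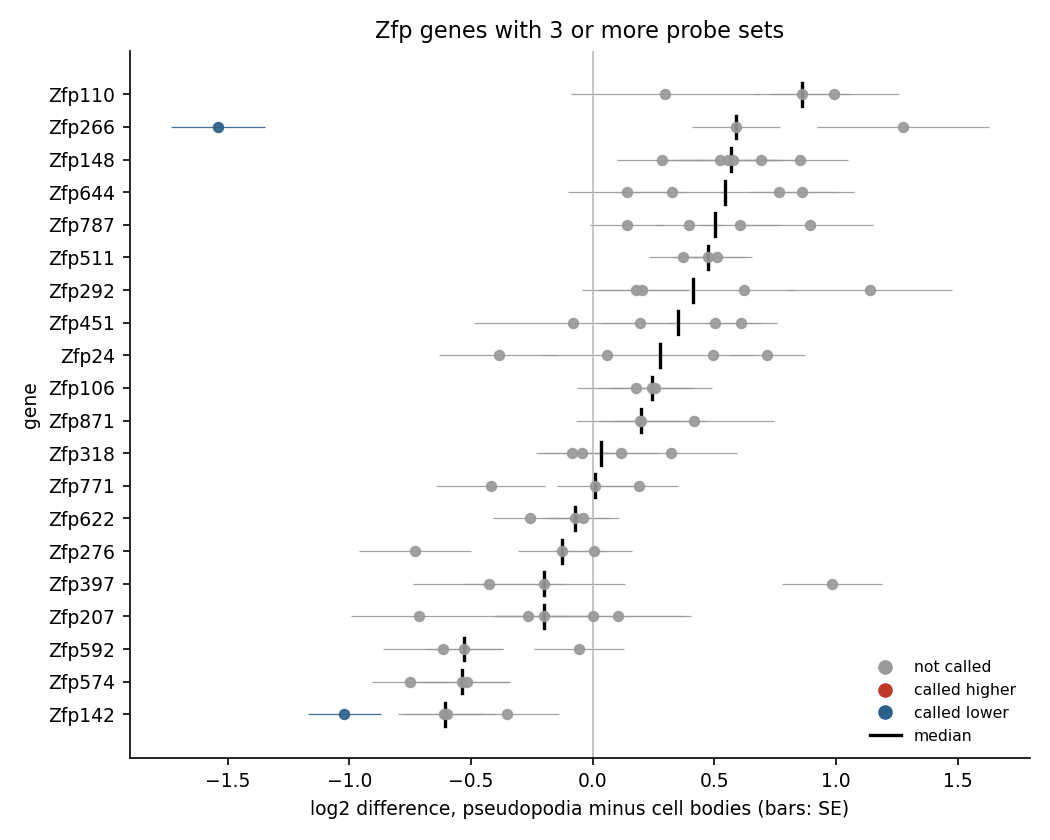
Log2 difference (bars, SE) of each probe set for the 20 Zfp genes with 3 or more members, with the gene's median as a black line. Zfp148, Zfp644, Zfp787 and Zfp292 lie above 0 at each probe set, Zfp142 and Zfp574 below 0, and Zfp266 spans -1.54 to 1.27.

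Probe design was read from the prefix of the listed record. Any record without a RefSeq or cDNA prefix was counted as an expressed sequence tag, and tags can come from introns or unprocessed RNA. Members designed on tags had a median of 0.072 over 191 probe sets, and those designed on RefSeq or cDNA records one of 0.13 over 68. Over all tested probe sets the corresponding medians were 0.024 and -0.023. Of the 191, 6 were called higher and 3 lower (3.14% and 1.57%, against 4.79% and 6.66% of all tested probe sets so designed). Of the 68, 6 were called higher and 0 lower (8.82% and 0, against 3.62% and 7.63%). Among 18 with no accession listed, 1 was called higher and 1 lower (5.56% each, against 3.58% and 7.88%). A link between probe design and direction was not tested. The 43 members whose IDs end in s, x or a, and so may match several transcripts, had a median of 0.19, against 0.094 for the 234 others.

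Members were also grouped by gene order. A RefSeq gene table placed 276 members; a run was taken as Zfp genes with at most 3 other protein-coding genes between neighbours, a rule chosen with the values known. The 129 probe sets of genes with no Zfp neighbour had a median of 0.043, with 69 (53.5%) above 0. In runs of 2 to 4 genes, 68 had a median of -0.0009, with 34 (50%) above 0. The 79 in runs of 5 genes or more had one of 0.17, with 57 (72.2%) above 0. The median thus did not rise step by step with the size of the run. Those in runs of 5 or more were dimmer, at a median intensity of 88.4 against 158 with no Zfp neighbour. Runs of 5 or more genes with at least 4 members numbered 9, and their medians ranged from -0.38 to 0.71. These values are a description, with no test.

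In the run from Zfp677 to Zfp40, the members lay higher in pseudopodia throughout. The run has 20 genes, of which 10 had members, and all 12 of these probe sets had differences above 0, from 0.20 to 1.80 with a median of 0.71, against 0.067 for the 265 other members. On 9 of the 12 the arrays did not overlap (28.7% of all tested probe sets were higher in that way), and 3 were called (4.11% of all), which were Zfp52, Zfp758 and Zfp943. The last pair passed the intensity threshold through pseudopodia alone, and the run was picked for its high median, so these counts are a description. Zfp52 read 164 and 204 in pseudopodia and 93.0 and 87.7 in cell bodies, a rise of 1.01 (SE 0.17, limma adjusted p = 0.0365). Zfp758 read 62.1 and 68.1 against 31.1 and 28.5, a rise of 1.10 (SE 0.15, limma adjusted p = 0.0278), and Zfp943 read 62.5 and 79.4 against 28.9 and 20, a rise of 1.51 (SE 0.24, limma adjusted p = 0.0327). The cell body levels of the last 2 lie near or at the lowest value, so their folds are loosely set. Zfp995 had a difference of 1.80, but its arrays read 151 and 274 against 80 and 41.9, and it did not pass (limma adjusted p = 0.0691). The other members were Zfp946 at 1.18, Zfp53 at 0.71 and 0.21, Zfp945 at 0.70 and 0.20, Zfp944 at 0.69, Zfp760 at 0.51 and Zfp54 at 0.40. Without pseudopodia replicate 1 the median of the run was 1.08, and without pseudopodia replicate 2 it was 0.48 with 10 of 12 above 0. The 9 members that reached 42 in both compartments had a median of 0.69. A further 26 probe sets of the run lay under 42, of which 17 had differences above 0, 4 below and 5 were at 20 on every array.

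**Figure D5:**
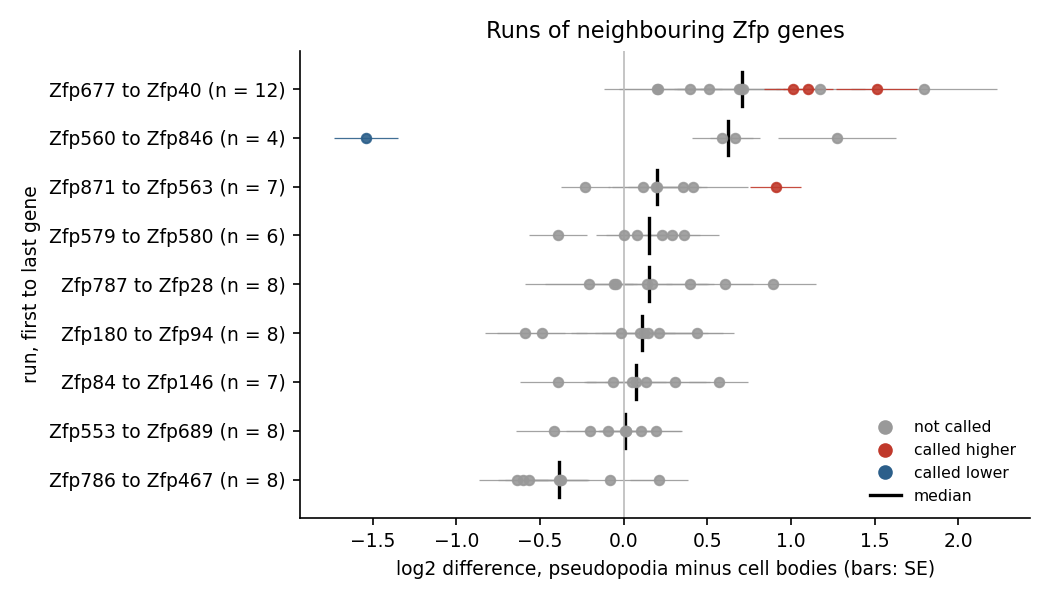
Log2 difference (bars, SE) of each member in the 9 runs of at least 5 neighbouring Zfp genes that held at least 4 members, with the run's median as a black line. The 12 members from Zfp677 to Zfp40 all lie above 0, and 7 of the 8 from Zfp786 to Zfp467 lie below it.

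Neighbouring genes of such a run can share sequence, and the start regions of its 3 called genes are shown for that. The 250 bases before the start of Zfp943, Zfp758 and Zfp52, from RefSeq on GRCm38.p6, are given 5′ to 3′ on the plus strand, with capitals for the 198 bases that Zfp943 and Zfp758 share without a break. They stand at chr17:21962309-21962558, chr17:22361213-22361462 and chr17:21535289-21535538 in that order.
Zfp943: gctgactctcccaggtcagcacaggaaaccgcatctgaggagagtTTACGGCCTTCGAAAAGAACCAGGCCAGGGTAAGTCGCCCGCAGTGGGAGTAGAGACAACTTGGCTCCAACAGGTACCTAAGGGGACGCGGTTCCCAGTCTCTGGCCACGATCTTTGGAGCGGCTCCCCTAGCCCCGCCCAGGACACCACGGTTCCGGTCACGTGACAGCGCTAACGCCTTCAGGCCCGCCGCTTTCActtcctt
Zfp758: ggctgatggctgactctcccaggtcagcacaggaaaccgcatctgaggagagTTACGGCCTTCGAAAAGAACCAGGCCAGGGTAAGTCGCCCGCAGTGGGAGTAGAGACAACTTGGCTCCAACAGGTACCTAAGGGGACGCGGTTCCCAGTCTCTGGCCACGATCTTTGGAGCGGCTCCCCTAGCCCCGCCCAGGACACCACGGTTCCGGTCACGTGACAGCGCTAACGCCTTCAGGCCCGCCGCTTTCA
Zfp52: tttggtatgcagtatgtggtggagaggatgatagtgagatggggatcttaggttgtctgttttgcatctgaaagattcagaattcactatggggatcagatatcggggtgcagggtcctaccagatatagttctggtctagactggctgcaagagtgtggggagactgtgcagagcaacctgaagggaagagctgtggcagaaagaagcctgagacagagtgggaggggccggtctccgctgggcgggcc
Over 63 pairs of start regions of different genes of the run, each read in its gene's own direction, the longest shared stretch had a median of 9 bases, and 1 pair shared 50 or more. Opposite strands were not compared, and the start regions of Zfp758 and Zfp944, which lie on opposite strands, overlap in part. The pair that shared 50 or more was Zfp943 and Zfp758, both of which rose. Whether the probe sets of these genes match each other's transcripts was not tested.

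The run from Zfp786 to Zfp467 went the other way, with 7 of 8 members below 0 and a median of -0.38. It was picked as the lowest median of the 9 runs, so these counts are a description. The run had 0 members called by limma at the adjusted threshold (backgrounds of 4.11% higher and 7.26% lower), and 3 had an unadjusted p under 0.05. Its clearest probe set, of Zfp282, read 270.2 and 265 in pseudopodia and 432 and 383 in cell bodies, a difference of -0.60 (limma adjusted p = 0.0722), and the second probe set of that gene had -0.57. Zfp956 had -0.64, Zfp212 -0.39, Zfp777 -0.38 and Zfp746 -0.37, and Zfp398 had -0.080 and 0.21.

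Start regions were also searched for 4 motifs on both strands in the 250 bases before each start, over 190 RefSeq entries of 150 member genes and all 32851 entries. The core of the site of Zfp143, a zinc finger activator with no member here, stood in 16 Zfp entries (8.42%) and in 0.935% of all. Among those 16, Zfp109, Zfp111, Zfp112, Zfp180 and Zfp93 lie in the run from Zfp180 to Zfp94. Zfp383, Zfp420, Zfp790 and Zfp84 lie in the run from Zfp84 to Zfp146. Entries of neighbouring genes may not be independent, and this was not tested. GGAAGTG, a form of the site of ETS factors, stood in 38 (20%) and in 8.55% of all. The core of the YY1 site, AAGATGGC, stood in 5 (2.63%) and 1.56%, and TATAAA stood in 14 (7.37%) and 12.4%. Member genes with the first motif had a median difference of 0.13 at their brightest probe set and those without it one of 0.11, and for GGAAGTG the medians were 0.15 and 0.11. For the YY1 core they were 0.072 and 0.11, and for TATAAA -0.030 and 0.12. A match describes letters and not binding.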

How the data were processed

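Each array gave 1 column of probe set intensity in the deposited table, on a linear scale with a lowest value of 20. For the authors' probe summary and scaling, nothing is stated in the labels or files used here. Chip lot, station, scanner, hybridization day and scan day had 1 value each in the array files, and each array its own fluidics module, so batches could not be fitted. Values were used as deposited, and log2(intensity + 1) was fitted by limma (version 3.58.1, R 4.3.3; two-sided moderated tests, with 2 residual and 2.64 prior degrees of freedom), over the 22884 of 45037 non-control probe sets with a mean of at least 42. The fit was tested on simulated data. A permutation test of 4 arrays cannot give a p under 33.3%, so none was run. Members with their values named were the called ones, the 5 brightest, those of role lists with a mean of at least 100, genes with 3 or more members, and the 3 on each side of the threshold. The members and lists were chosen with earlier results of these data known. Gene IDs of 277 members matched a RefSeq table of GRCm38.p6, which gave gene order, and 220 members (150 genes) matched a start region. Protein features of Zfp genes were not analysed here. Alternatives covered the pseudocount, the filter, normalization, one probe set per gene, probe sets that may match several transcripts, values at the floor, a replicate block and each array left out.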

Additional observations from a re-analysis of the deposited data

How the results depend on the processing

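The number of calls moved with the setting. Over the alternatives that tested them, the 17 called Zfp probe sets kept their sign in each. On these 17 the compartments do not overlap. A left-out array, another pseudocount or filter, or a replicate block could thus not change their sign, and the kept sign is no support. With 1 array left out, 1 compartment has a single array, so only sizes are given for those fits. Leaving out an array, the family's median ran from 0.011 to 0.14. The number without overlap ran from 115 to 145 higher and from 79 to 102 lower, against 101 and 67 with all arrays. Fewer arrays have fewer ways to overlap, so these counts cannot be compared with those of all arrays. Without a filter, limma called 73 probe sets in all, 33 higher and 40 lower. It called 1 Zfp probe set higher (0.174%, against 0.0733% of all) and 0 lower (against 0.0888%), with 101 at an unadjusted p under 0.05. The family median was then 0 and 155 were higher without overlap, as 574 probe sets, many at the floor, were counted. With a mean intensity of at least 100 the family median was 0.0019, and 58 members were higher without overlap. In that setting 25 were called higher (14.7%, with 1413 over all probe sets, or 8.77%) and 12 lower (7.06%, against 12.3%). For the counts without overlap in these settings, the share over all probe sets was not computed. The count called higher was 8 with at least 42 in each compartment (3.2%, against 4.18% of all). It was 23 with a pseudocount of 16 (8.30%, against 5.25%), where 8 were lower (2.89%, against 8.69%). Quantile normalization gave 23 (8.30%, against 5.24%) and median centring 25 (9.03%, against 5.79%). With one probe set per gene, 1592 were called in all and 947 lower, fewer being tested. Of the Zfp genes, 18 were then higher (9.57%, against 5.645%) and 6 lower (3.19%, against 8.29%). Of all calls, 36.2% were higher in the main setting and 33.9% to 41.6% in the alternatives other than no filter and a left-out array. A replicate block raised the count called higher to 25 (9.03%, against 5.37%) and gave 5 lower (1.81%, against 8.84%). Deviations of same-numbered arrays correlated at 0.33 over all tested probe sets and at 0.24 over the members. The labels do not say whether a shared number marks a shared batch or culture, and this was not tested. Relative to other genes of their level, the family's median was 0.049 with 4 equal-sized level classes and 0.031 with a lowess curve, 0.019 at a mean of at least 100, and 0.015 to 0.10 with 1 array left out. For results not listed, no called value changed sign. The cause of these changes was not tested. The floor of 20 limits the size of each change among dim probe sets.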
